A study of Mus musculus with 6 samples.

Results

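The sterol and fatty acid synthesis genes were measured in granulocyte-monocyte progenitors (GMP), marrow precursors that give rise to neutrophils and monocytes. The set held 34 genes of the 24205 in the deposited table, taken by gene name: 33 were found by name, and Msmo1 was matched by its Ensembl identifier because the table lists it under the older name Sc4mol. By role they comprised 7 genes of the mevalonate arm, 11 of the arm that leads from squalene to cholesterol, 6 that control SREBP or carry sterol, 6 of fatty acid synthesis, and 4 liver X receptor (LXR) and sterol efflux genes. One group was 3 libraries from C57BL/6 mice after hindlimb ischemia, an operation that interrupts the blood supply of a hind leg, and the other was 3 libraries from C57BL/6 mice after a sham operation. In both groups the progenitors were sorted from bone marrow directly into extraction buffer and total RNA was sequenced in bulk. The age and sex of the mice, the time after surgery, the sort markers and whether each replicate was a separate animal were not given in sources used here. The p-values therefore reflect only how these 6 samples vary, which may be technical.

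Cholesterol and the isoprenoids are built from acetyl-CoA through mevalonate, farnesyl pyrophosphate and squalene, and fatty acids from the same precursor through malonyl-CoA. When membrane sterol is low, SCAP escorts the SREBP transcription factors to the Golgi, where they are cleaved and then switch on these enzymes. When sterol is plentiful, INSIG proteins hold SCAP in the endoplasmic reticulum, and oxysterols activate LXR, which induces the exporters ABCA1 and ABCG1. In mouse blood progenitors this efflux branch is known for restraining proliferation and the output of myeloid cells.

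Promoter sequence was shown for 4 genes chosen to cover the range seen in the data: Hmgcs1, the only one with an SREBP element by the letters searched; Insig1 and Msmo1, whose values did not overlap between the groups; and Sc5d, whose mean was higher after ischemia. Each run covers 250 bases before to 50 after the start, from RefSeq on GRCm38.p6, and reads 5′ to 3′ on the strand of the gene. The windows are chr13:119690101-119690400 on the plus strand for Hmgcs1, chr5:28071162-28071461 on the plus strand for Insig1, chr8:64733529-64733828 on the minus strand for Msmo1 and chr9:42264251-42264550 on the minus strand for Sc5d. Capitals mark the sterol regulatory element TCACNCCAC, the NF-Y box CCAAT and the E-box CACGTG, each on either strand.
Hmgcs1: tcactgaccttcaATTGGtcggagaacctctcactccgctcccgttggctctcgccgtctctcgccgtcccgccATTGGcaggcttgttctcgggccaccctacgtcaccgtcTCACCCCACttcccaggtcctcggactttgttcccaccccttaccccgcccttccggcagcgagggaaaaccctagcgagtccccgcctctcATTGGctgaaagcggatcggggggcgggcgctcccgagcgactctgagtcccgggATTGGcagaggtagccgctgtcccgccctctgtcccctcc
Insig1: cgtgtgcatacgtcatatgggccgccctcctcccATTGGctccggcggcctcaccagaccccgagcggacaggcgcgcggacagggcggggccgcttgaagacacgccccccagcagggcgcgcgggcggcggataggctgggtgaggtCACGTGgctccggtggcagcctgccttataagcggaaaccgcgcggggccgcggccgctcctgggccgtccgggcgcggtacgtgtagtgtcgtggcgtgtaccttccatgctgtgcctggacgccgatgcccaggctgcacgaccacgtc
Msmo1: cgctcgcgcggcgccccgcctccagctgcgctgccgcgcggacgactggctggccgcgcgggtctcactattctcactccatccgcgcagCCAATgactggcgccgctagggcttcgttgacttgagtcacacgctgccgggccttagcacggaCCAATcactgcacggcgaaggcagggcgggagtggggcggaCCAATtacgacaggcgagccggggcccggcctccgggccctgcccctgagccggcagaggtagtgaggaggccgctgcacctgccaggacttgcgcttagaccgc
Sc5d: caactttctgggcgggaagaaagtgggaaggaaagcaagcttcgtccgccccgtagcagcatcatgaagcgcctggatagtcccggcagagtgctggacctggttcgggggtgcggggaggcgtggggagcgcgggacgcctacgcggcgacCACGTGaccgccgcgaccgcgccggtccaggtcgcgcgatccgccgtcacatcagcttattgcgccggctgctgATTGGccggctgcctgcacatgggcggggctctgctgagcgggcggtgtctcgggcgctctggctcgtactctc

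RefSeq windows were matched for 27 of the 34 genes, with 36 windows in all. Those not matched were Abcg1, Fdft1, Fdps, Scd1, Scd2, Sqle and Stard4. The sterol regulatory element was found in 1 of the 36 windows (2.78%), against 1.24% of all 32851 windows; it lay 137 bases before the Hmgcs1 start. An NF-Y box, bound by a factor that works beside SREBP, was found in 21 windows (58.3%), against 37.4% of all windows. Hmgcs1 held 4 of these boxes, Msmo1 held 3, and Insig1 and Sc5d held 1 each. An E-box was found in 7 windows (19.4%), of 6 genes, against 7.15% of all windows, and both Insig1 and Sc5d had 1. The 2 Scap windows overlap and hold the same E-box. Of windows of genes that reached 1 TPM in 3 or more libraries, 10.4% held an E-box and 38.6% an NF-Y box. AGGTCA repeated in the same direction 4 bases apart, with up to 2 mismatches, was found in 1 window, of Dhcr7 (2.78%), against 3.02% of all windows. No motif overlapped another in the 4 windows printed. These letters describe the windows and locate no binding.

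Across the set, levels after hindlimb ischemia were mostly a little below those after sham, and no gene passed the test. Levels are in TPM, a unit that scales reads by gene length and library total. The test was limma-trend on log2(TPM + 1), ischemia minus sham, for genes that reached 1 TPM in 3 or more libraries, with p adjusted by Benjamini and Hochberg over all 13787 genes tested. Of the 34 genes 33 passed that filter, and Abca1 did not. With limma 0 of the 33 had an adjusted p under 0.05, beside 0% of all genes, and their adjusted p-values ran from 0.874 to 0.99. At an unadjusted p under 0.05 there were 2 of 33, Abcg1 and Insig1, both lower after ischemia, beside 3.89% of all genes (2.95% lower and 0.943% higher). The log2 fold change was below 0 for 28 of 33, beside 69.1% of all genes, and its median was -0.19, beside -0.09 for all genes. The values of the groups did not overlap, with ischemia lower, for 4 of 33 (Abcg1, Insig1, Acat2 and Msmo1), beside 6.68% of all genes, and 0 of 33 did so with ischemia higher, beside 1.65%. The counts moved with scaling: 24 of 33 were below 0 with median-of-ratios size factors and 25 with quantile normalization, beside 46.4% and 52.7% of all genes, and the median was -0.09 under each, beside 0.02 and -0.01 for all genes. The transcripts of the set were longer than those of all genes, with a median of 3698 against 2696 bases, at a like GC content of 49.6% and 49.2%. With each library's trend in GC content and length removed, 23 of 33 were below 0, beside 48.8% of all genes, and the median was -0.06, beside 0.00.

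**Figure D1:**
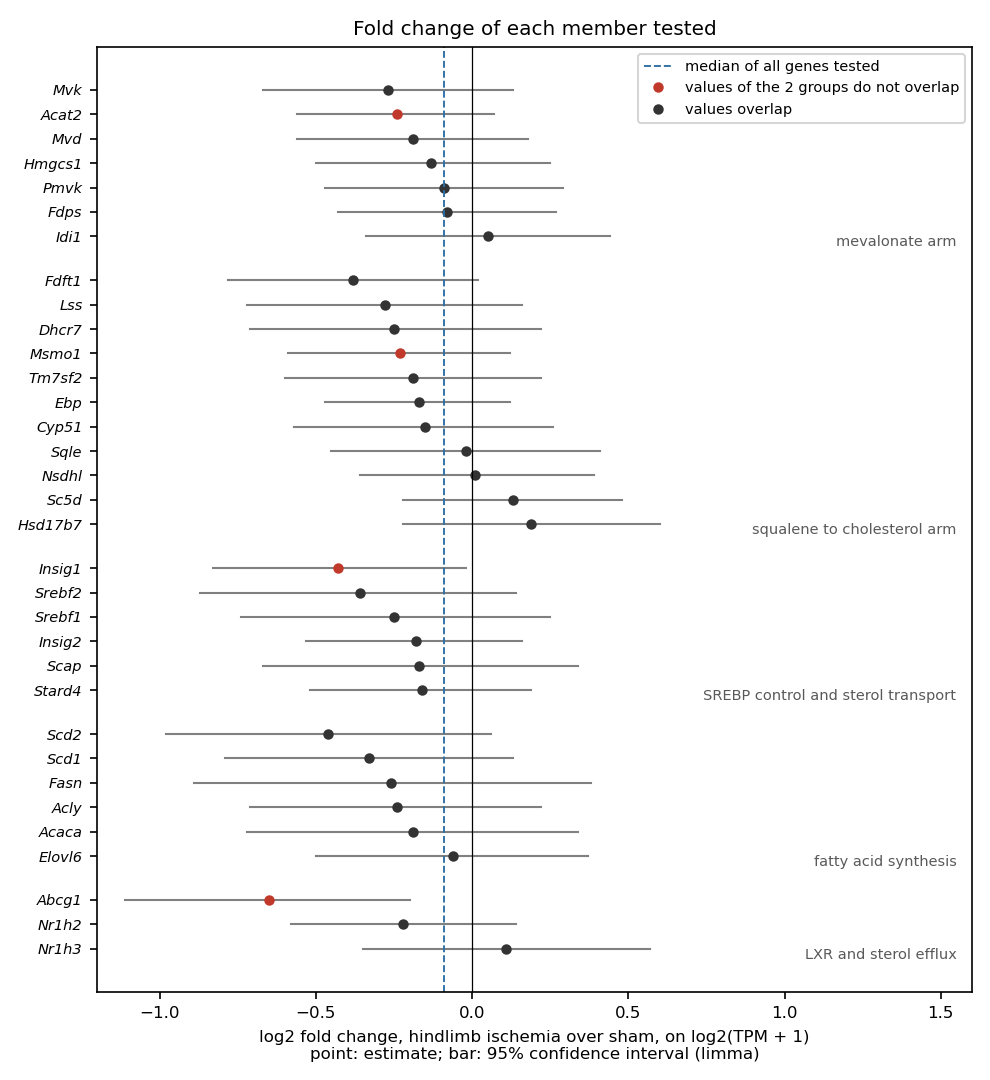
Log2 fold change of each of the 33 genes tested, hindlimb ischemia over sham on log2(TPM + 1), grouped by role, with points for estimates and bars for 95% confidence intervals from limma. The intervals of Abcg1 and Insig1 lie below 0, and the dashed line is the median of all genes tested, -0.09.

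The libraries within each group differed among themselves. The set took 0.110%, 0.0906% and 0.0720% of all TPM in ischemia replicates 1, 2 and 3, against 0.118%, 0.0928% and 0.0991% in sham replicates 1, 2 and 3. Ischemia replicate 1 was thus above both sham replicates 2 and 3, and the ranges overlapped. Ischemia replicate 3 was the lowest library for 27 of the 34 genes (79.4%), beside 47.7% of all genes tested, and sham replicate 1 was the highest for 27 of the 34 (79.4%), beside 51.4%. Without ischemia replicate 3 the median log2 fold change was -0.07 with 22 of 33 genes below 0, beside -0.03 for all genes. Without sham replicate 1 it was -0.11 with 24 below 0, beside -0.04 for all genes. Other libraries moved it the other way: it was -0.29 with 29 below 0 without ischemia replicate 1, beside -0.15 for all genes, and -0.28 with 29 below 0 without sham replicate 2, beside -0.13. Without ischemia replicate 2 or sham replicate 3 it was -0.20. With both ischemia replicate 3 and sham replicate 1 left out it was 0.01 with 14 below 0, beside 0.02 for all genes, but these libraries were picked because they were lowest and highest in most of these genes, so higher values are built into that choice. Mitochondrially encoded genes took 3.76%, 6.35% and 7.50% of TPM in ischemia replicates 1, 2 and 3, against 4.77%, 5.51% and 4.40% in sham replicates 1, 2 and 3. Their part in the result was not tested.

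**Figure D2:**
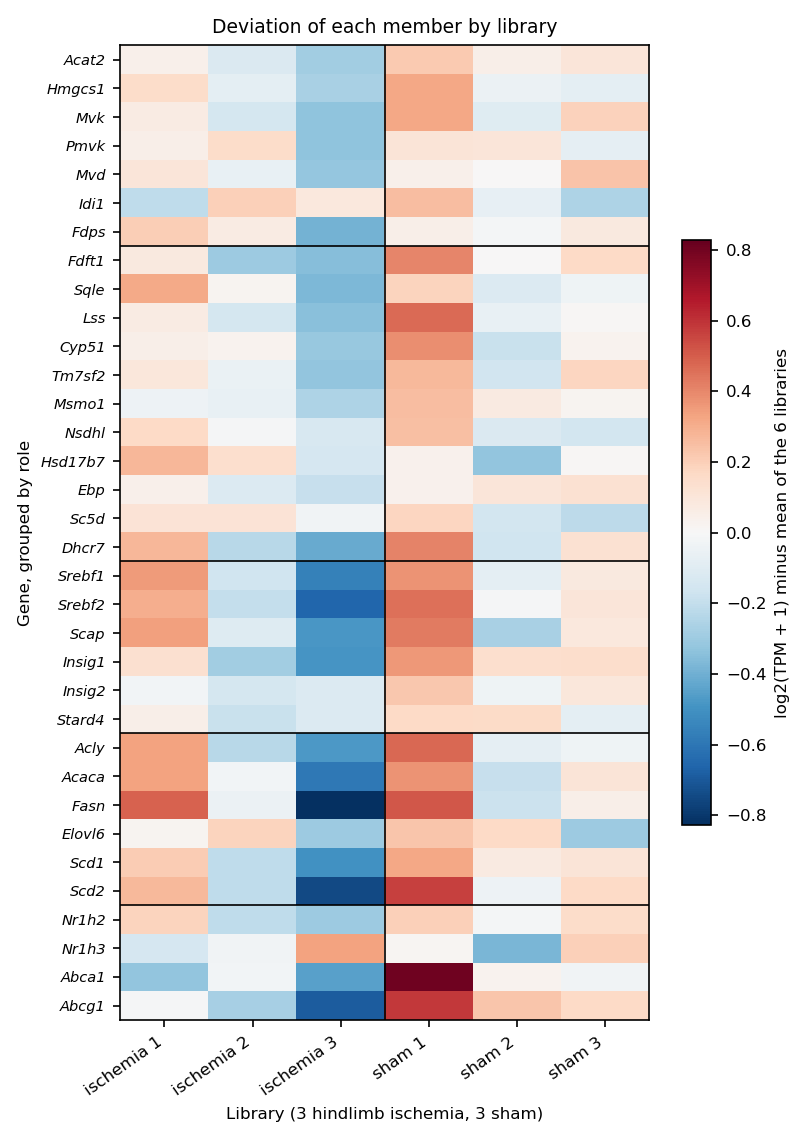
Deviation of log2(TPM + 1) from the mean of the 6 libraries for each of the 34 genes (rows, grouped by role) in each library (columns, 3 hindlimb ischemia then 3 sham). Ischemia replicate 3 is lowest and sham replicate 1 highest for 27 of the 34 genes each.

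The depth recovered from the TPM values was 32548026 to 41624582 reads per library. Marker genes of granulocyte-monocyte progenitors, such as Mpo and Elane, were all present (9 of 9 at a mean of at least 1 TPM), and their summed level was 24310 to 29920 TPM after ischemia and 25100 to 30210 TPM after sham. Erythroid markers summed to 26.0 to 85.5 TPM after ischemia, against 146 to 178 TPM after sham (7 of 10 at a mean of at least 1 TPM), and B lineage markers to 46.0 to 47.9 TPM after ischemia, against 53.5 to 60.3 TPM after sham (4 of 8). Neither list's ranges overlapped between the groups, and the part of these cells in the values below was not tested. Macrophage markers summed to 39.5 to 48.4 TPM after ischemia and 44.2 to 51.0 TPM after sham (8 of 12). Mertk was near 0 in both groups, at 0 in every ischemia library and at most 0.0562 TPM after sham. Endothelial and stromal markers summed to 22.4 to 40.7 TPM after ischemia and 29.9 to 39.0 TPM after sham (2 of 7), and mature neutrophil markers to 381 to 862 TPM after ischemia and 532 to 801 TPM after sham (8 of 8). Adipocyte markers summed to at most 1.57 TPM after ischemia and 1.70 TPM after sham, with 0 of 6 at a mean of 1 TPM. Fewer cells of a type and less RNA per cell cannot be told apart in these bulk samples.

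The 7 mevalonate arm genes summed to 357 ± 56.1 TPM after ischemia and 381 ± 18.7 TPM after sham (SD, n = 3 each). Their median log2 fold change was -0.13, which is -0.04 once the median of all genes is taken off, with 6 below 0 and 1 above. Of those 6, Pmvk and Fdps were above 0 with size factors and after the GC and length correction. Fdps, which makes farnesyl pyrophosphate and was the most abundant gene of the set, had 250, 228 and 166 TPM in ischemia replicates 1, 2 and 3, against 225, 215 and 230 TPM in the sham replicates. Only ischemia replicate 3 lay below the sham range, and the log2 fold change was -0.08 (SE 0.16, 95% interval -0.43 to 0.27).

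Acat2 (ENSMUSG00000023832, GRCm38 chromosome 17, 12942890 to 12960747, minus strand), the cytosolic thiolase that joins 2 acetyl-CoA molecules at the head of the pathway, had 54.7, 48.7 and 43.3 TPM after ischemia, against 61.9, 54.8 and 56.9 TPM after sham. The groups did not overlap, though the highest ischemia and the lowest sham value were nearly equal. The log2 fold change was -0.24 (SE 0.14, unadjusted p = 0.116, adjusted p = 0.874 by limma). Hmgcs1, the HMG-CoA synthase whose promoter is shown above, had 36.2, 30.7 and 26.8 TPM after ischemia, against 40.7, 31.4 and 30.6 TPM after sham. Ischemia replicates 1 and 2 lay inside the sham range and replicate 3 below it, with a log2 fold change of -0.13 (SE 0.17). Mvk, mevalonate kinase, averaged 5.11 ± 0.858 TPM after ischemia and 6.39 ± 1.06 TPM after sham (SD, n = 3 each), with a log2 fold change of -0.27 (SE 0.18).

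The groups also overlapped for the kinase, decarboxylase and isomerase that follow. Pmvk averaged 13.3 ± 2.42 TPM after ischemia and 14.1 ± 1.04 TPM after sham (SD, n = 3 each). Mvd averaged 11.2 ± 1.76 TPM after ischemia and 12.9 ± 1.21 TPM after sham (SD, n = 3 each). Idi1, which interconverts the isoprenoid building blocks, was the gene of this arm with a positive estimate, at 32.9 ± 4.81 TPM after ischemia and 31.9 ± 5.98 TPM after sham (SD, n = 3 each). Its lowest ischemia value was in replicate 1, at 27.6 TPM, whereas that library was the lowest for none of the 34 genes over all 6 libraries. The log2 fold change of Idi1 was 0.05 (SE 0.18).

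**Figure D3:**
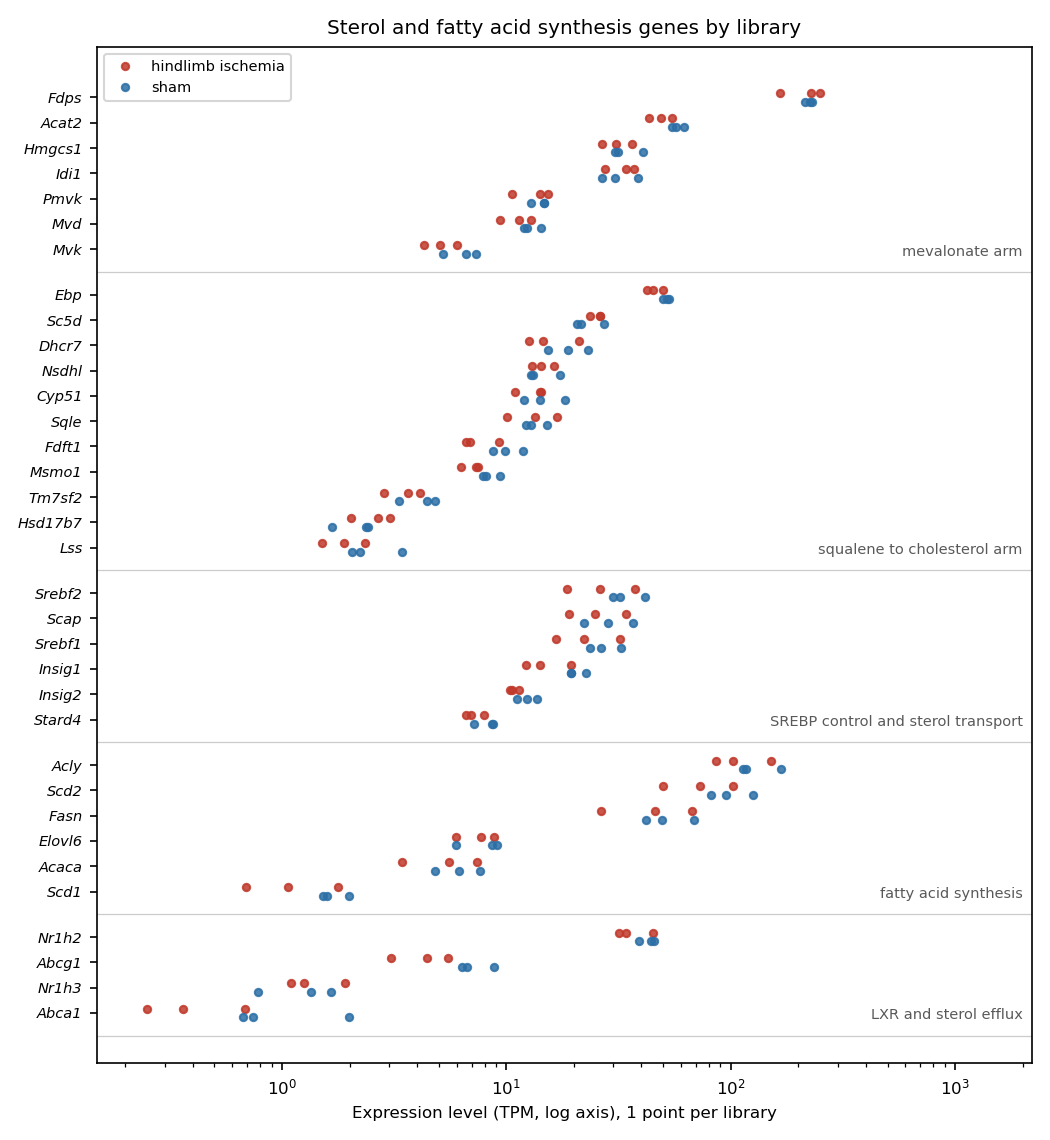
Level of each of the 34 genes in each library (TPM on a log axis, 1 point per library, hindlimb ischemia drawn above sham), grouped by role and ordered by mean within a role. Levels run from 0.249 TPM for Abca1 to 250 TPM for Fdps, and the points of the groups interleave for most genes.

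The 11 genes from squalene to cholesterol summed to 151 ± 19.4 TPM after ischemia and 164 ± 16.8 TPM after sham (SD, n = 3 each), with 8 fold changes below 0 and 3 above; Sqle, among the 8, was above 0 under each other scaling. Fdft1, squalene synthase, the step that commits farnesyl pyrophosphate to sterol, had 9.23, 6.87 and 6.59 TPM after ischemia, against 11.8, 8.68 and 9.86 TPM after sham. Ischemia replicate 1 lay inside the sham range and the other two below it. The log2 fold change was -0.38 (SE 0.18, 95% interval -0.78 to 0.02, unadjusted p = 0.0617, adjusted p = 0.874 by limma). Fdft1 shares 774 exon bases with Ctsb on the opposite strand, a gene at 158 TPM after ischemia and 184 TPM after sham, and whether counting used strand was not given in sources used here, so reads from the shared bases cannot be told apart.

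Msmo1 (ENSMUSG00000031604, GRCm38 chromosome 8, 64718139 to 64733792, minus strand), a methyl oxidase that acts in sterol demethylation, had 7.45, 7.35 and 6.30 TPM after ischemia, against 9.39, 8.15 and 7.84 TPM after sham. All 3 ischemia values were below all 3 sham values, and the log2 fold change was -0.23 (SE 0.16, unadjusted p = 0.17, adjusted p = 0.874 by limma). Sqle, squalene epoxidase, a rate-controlling step, had 16.7, 13.5 and 10.03 TPM after ischemia, against 15.2, 12.2 and 12.9 TPM after sham. Its ischemia values lay on both sides of the sham range, with a log2 fold change of -0.02 (SE 0.20). Lss, which cyclizes epoxidized squalene to lanosterol, averaged 1.91 ± 0.419 TPM after ischemia and 2.57 ± 0.748 TPM after sham (SD, n = 3 each), and sham replicate 1, at 3.43 TPM, stood apart.

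The 3 genes of this arm with positive estimates were Hsd17b7, Sc5d and Nsdhl. Hsd17b7, a sterol ketone reductase, had 3.04, 2.68 and 2.03 TPM after ischemia, against 2.42, 1.66 and 2.36 TPM after sham. Replicates 1 and 2 of the ischemia group exceeded every sham value, and replicate 3 did not, with a log2 fold change of 0.19 (SE 0.19). Sc5d, the desaturase near the end of the pathway, had 26.1, 26.0 and 23.5 TPM after ischemia, against 27.3, 21.6 and 20.6 TPM after sham. The ischemia values were above sham replicates 2 and 3 and below sham replicate 1, with a log2 fold change of 0.13 (SE 0.16). Nsdhl, which removes a carboxyl group left by demethylation, averaged 14.5 ± 1.64 TPM after ischemia and 14.4 ± 2.47 TPM after sham (SD, n = 3 each).

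The remaining genes of this arm overlapped between the groups. Cyp51, lanosterol demethylase, averaged 13.1 ± 1.91 TPM after ischemia and 14.8 ± 3.22 TPM after sham (SD, n = 3 each). Dhcr7, which reduces the last double bond in 1 route to cholesterol, averaged 16.1 ± 4.40 TPM after ischemia and 19.1 ± 3.95 TPM after sham (SD, n = 3 each). Ebp, the sterol isomerase, averaged 45.8 ± 3.87 TPM after ischemia and 51.8 ± 1.80 TPM after sham (SD, n = 3 each). Tm7sf2, a sterol reductase that shares 532 exon bases with Vps51 on the same strand, averaged 3.54 ± 0.653 TPM after ischemia and 4.18 ± 0.771 TPM after sham (SD, n = 3 each). The log2 fold changes of these 4 ran from -0.25 for Dhcr7 to -0.15 for Cyp51.

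The 6 SREBP control and sterol transport genes all had estimates below 0, Scap excepted after the GC and length correction. Their median was -0.22, and -0.13 after that of all genes was subtracted. Insig1 (ENSMUSG00000045294, GRCm38 chromosome 5, 28071363 to 28078662, plus strand), which retains SCAP and is itself induced by SREBP, had 19.3, 14.2 and 12.2 TPM after ischemia, against 22.7, 19.4 and 19.5 TPM after sham. No ischemia value reached the sham range, though ischemia replicate 1 nearly equalled the lowest sham value. The log2 fold change was -0.43 (SE 0.19, 95% interval -0.83 to -0.02), from 773 to 1076 reads per library, with an unadjusted p of 0.0412 and an adjusted p of 0.874 by limma. Its paralog Insig2 averaged 10.8 ± 0.537 TPM after ischemia and 12.4 ± 1.21 TPM after sham (SD, n = 3 each), with a log2 fold change of -0.18 (SE 0.16).

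Srebf2, the SREBP that mainly drives sterol genes, had 37.3, 26.1 and 18.7 TPM after ischemia, against 41.7, 29.8 and 32.2 TPM after sham. Ischemia replicate 1 lay above sham replicates 2 and 3, and the other two lay below the whole sham group, with a log2 fold change of -0.36 (SE 0.23, 95% interval -0.87 to 0.14). Srebf1, the family member tied to fatty acid genes, had 32.2, 22.2 and 16.6 TPM after ischemia, against 32.5, 23.6 and 26.5 TPM after sham, and Scap had 34.1, 24.8 and 18.9 TPM after ischemia, against 36.5, 22.1 and 28.5 TPM after sham. In both genes replicate 1 of each group was the high library of its group. Stard4, a carrier of cholesterol between membranes, averaged 7.17 ± 0.687 TPM after ischemia and 8.16 ± 0.856 TPM after sham (SD, n = 3 each).

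For the 6 fatty acid synthesis genes, the median deviation per library varied most between replicates among the role groups. Its SD within groups was 0.35 on the log2 scale. All 6 estimates were below 0, Elovl6 excepted with size factors, quantile normalization or the GC and length correction. The median estimate was -0.25. They summed to 249 ± 83.1 TPM after ischemia and 303 ± 67.7 TPM after sham (SD, n = 3 each). Scd2, a stearoyl-CoA desaturase that makes monounsaturated fatty acids, had 102, 72.9 and 50 TPM after ischemia, against 125, 82.0 and 95.02 TPM after sham. Ischemia replicate 1 lay inside the sham range, and the log2 fold change was -0.46 (SE 0.24, 95% interval -0.98 to 0.06, unadjusted p = 0.0786, adjusted p = 0.874 by limma). Its close paralog Scd1 had 1.77, 1.07 and 0.693 TPM after ischemia, against 1.98, 1.52 and 1.583 TPM after sham. The estimate for Scd1 was -0.33 (SE 0.21), and how reads shared by the 2 paralogs were assigned was not given in sources used here.

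Fasn, fatty acid synthase, had 67.1, 46.0 and 26.4 TPM after ischemia, against 68.4, 42.0 and 49.2 TPM after sham. The ischemia libraries alone spanned more than the distance between the group means, 46.5 TPM after ischemia and 53.2 TPM after sham, and the log2 fold change was -0.26 (SE 0.29). Acly, which supplies cytosolic acetyl-CoA from citrate, had 152, 102 and 86.1 TPM after ischemia, against 167, 114 and 117 TPM after sham. Ischemia replicate 1 again lay inside the sham range, and the log2 fold change was -0.24 (SE 0.21). Acaca, the carboxylase that makes malonyl-CoA, averaged 5.45 ± 1.99 TPM after ischemia and 6.20 ± 1.39 TPM after sham (SD, n = 3 each), and Elovl6, an elongase, averaged 7.49 ± 1.42 TPM after ischemia and 7.90 ± 1.68 TPM after sham (SD, n = 3 each).

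The LXR and efflux genes held the lowest estimate of the set. Abcg1 (ENSMUSG00000024030, GRCm38 chromosome 17, 31057675 to 31117988, plus strand), which passes cholesterol to high-density lipoprotein, had 5.51, 4.42 and 3.06 TPM after ischemia, against 8.83, 6.68 and 6.33 TPM after sham. Every ischemia value lay below every sham value, from 308 to 607 reads per library. The log2 fold change was -0.65 (SE 0.21, 95% interval -1.11 to -0.20), with an unadjusted p of 0.00915 and an adjusted p of 0.874 by limma, and it ran from -0.81 to -0.34 under the alternatives. In the authors' deposited table, whose log2 fold change runs sham over ischemia, Abcg1 stood at 0.448 with an adjusted p of 0.259. The test behind it was not given, and no other gene of the set had a smaller adjusted p there.

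Abca1, the partner exporter that loads lipid-poor apolipoprotein, had 0.363, 0.683 and 0.249 TPM after ischemia, against 1.98, 0.741 and 0.673 TPM after sham. Sham replicate 1 stood apart, and ischemia replicate 2 lay above sham replicate 3. Abca1 was below the filter; a fit without it gave a log2 fold change of -0.53 (SE 0.25) and an adjusted p of 0.878 by limma, from 64 to 347 reads per library. Nr1h2, which encodes LXR-beta, had 45.0, 34.1 and 31.9 TPM after ischemia, against 45.5, 39.0 and 43.9 TPM after sham, with a log2 fold change of -0.22 (SE 0.16). Nr1h3, which encodes LXR-alpha, had 1.098, 1.26 and 1.91 TPM after ischemia, against 1.34, 0.779 and 1.65 TPM after sham, from 36 to 119 reads, with overlap and a log2 fold change of 0.11 (SE 0.21).

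**Figure D4:**
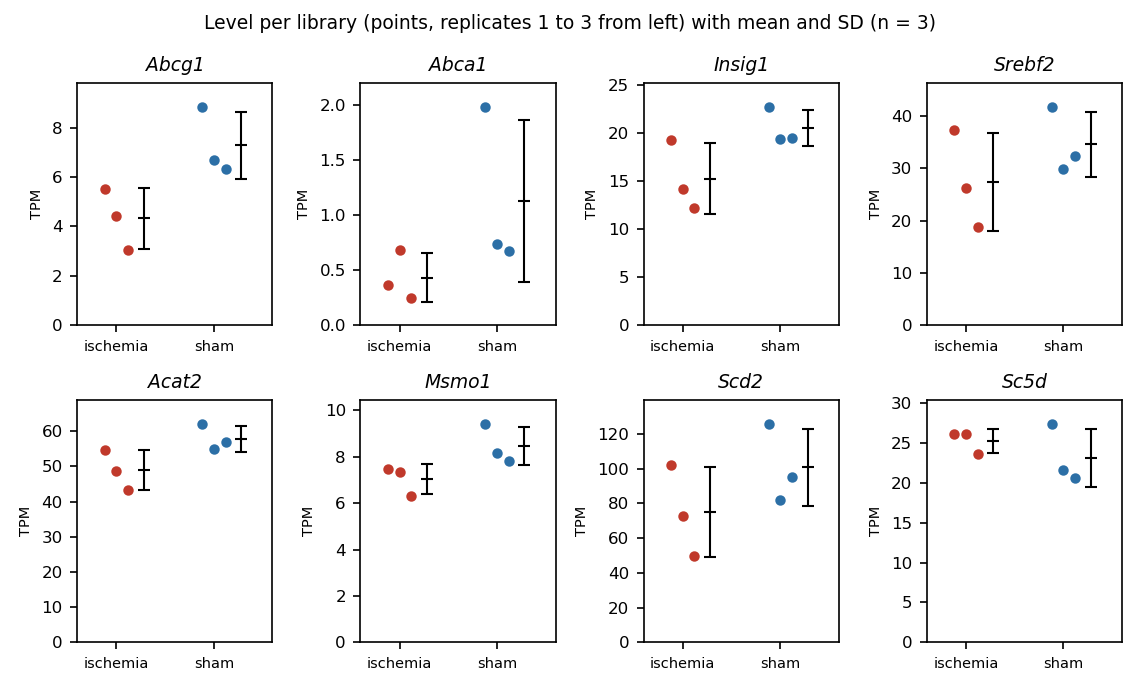
Level per library (TPM, linear axis from 0) of 8 genes, with points for replicates 1 to 3 from the left and the mean and SD (n = 3) beside them, hindlimb ischemia left of sham. Abcg1, Insig1, Acat2 and Msmo1 are separated by group, whereas Abca1, Srebf2, Scd2 and Sc5d overlap.

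Genes that surround these enzymes were read from 6 further lists of 77 genes, of which 72 were tested. With limma 0 of the 72 had an adjusted p under 0.05, beside 0% of all genes tested. At an unadjusted p under 0.05 there were 2, both lower, beside 3.89% of all genes (2.95% lower). A fold change below 0 was found for 65, beside 69.1% of all genes. That count was 47 with size factors, 51 with quantile normalization and 44 after the GC and length correction. The shares of all genes were 46.4%, 52.7% and 48.8% in that order. Among LXR partners and targets all 7 tested were below 0, with a median of -0.25, and 6 of 7 were under each other scaling. Apoe, an apolipoprotein that accepts effluxed cholesterol, had 66.2, 56.8 and 54.6 TPM after ischemia, against 86.8, 76.9 and 71.8 TPM after sham. It was the 1 gene of the 72 whose groups did not overlap, beside 6.68% of all genes with ischemia lower and 1.65% with ischemia higher. The log2 fold change of Apoe was -0.40 (SE 0.14, unadjusted p = 0.0158, adjusted p = 0.874 by limma). Rxra, the receptor that pairs with LXR, averaged 1.02 ± 0.233 TPM after ischemia and 1.78 ± 0.755 TPM after sham (SD, n = 3 each).

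In the list of SREBP processing and INSIG turnover 9 of 11 were below 0. Sec24d, a coat protein of vesicles leaving the endoplasmic reticulum, averaged 36.6 ± 8.03 TPM after ischemia and 50.1 ± 6.77 TPM after sham (SD, n = 3 each), with a log2 fold change of -0.45 (SE 0.18, unadjusted p = 0.027, adjusted p = 0.874 by limma). Ube2g2, a ubiquitin-conjugating enzyme of endoplasmic reticulum degradation, had a log2 fold change of -0.36 (SE 0.18). Of the other lists, 10 of 13 isoprenoid genes, 13 of 13 genes of sterol uptake, storage and trafficking, 18 of 20 of fatty acid supply and 8 of 8 of feedback by AMPK and mTORC1 were below 0 on TPM as deposited, beside 69.1% of all genes. With size factors the counts were 7, 7, 12 and 6 in that order of lists, beside 46.4% of all genes, and after the GC and length correction 6, 6, 12 and 5, beside 48.8%. Among the genes with the smallest p in each, the log2 fold change was -0.18 for Coq2 in the first. The values were -0.39 for Gramd1a and -0.25 for Osbpl2 in the second, -0.47 for Fads2 and -0.19 for Tecr in the third, and -0.41 for Tsc2 and -0.21 for Prkag1 in the last.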

How the data were processed

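Bulk RNA from sorted granulocyte-monocyte progenitors was sequenced in 3 hindlimb ischemia and 3 sham libraries, grouped by the labels' treatment. The authors deposited TPM values per library with each gene's log2 fold change and adjusted p-value, per the file headers. Per the submitters' processing notes, mm10 was the build. Aligner, counter, annotation and test were not given in sources used here. The log2 column names no direction: its Spearman correlation with ischemia over sham was -0.97 across genes, so it runs sham over ischemia. Reads were recovered as TPM times exon-union length (GENCODE M21) and were whole within 0.001 reads for 14447 genes (59.7%); for 9758 others the smallest length giving whole reads was used, so these are whole up to a common factor.

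Genes that reached 1 TPM in 3 or more libraries were fitted with limma 3.58.1 (R 4.3.3; trend, robust, 4 residual degrees of freedom) on log2(TPM + 1), a scale that understates changes of low genes, with Benjamini-Hochberg adjustment and a threshold of 0.05. The fit was tested on simulated reads, drawn gene by gene at 1 dispersion (0.0117) and so without shifts of whole libraries. At the threshold it recovered 54 of 100 genes changed 1.5-fold and 86 of 100 changed 2-fold. There were 16 false calls. The genes, gene lists and tests were chosen with earlier results of these data known. Named genes were all 34 members and, of each further list, the 2 with the smallest unadjusted p, of which 1 gene is not reported here; Mpo, Elane and Mertk were named as markers. The labels give no batch. Alternatives covered normalization, filters, pseudocounts, trend, weights, limma-voom on recovered reads, the replicate block and each library left out. A correction for GC content and length, with and without the block, weights estimated gene by gene, and leaving out 2 libraries together were added after seeing the data.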

Additional observations from a re-analysis of the deposited data

How the results depend on the processing

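Of 655 gene values under 20 alternatives, 601 kept the main direction, and 16 of the 33 genes never reversed in those runs. Many of the 655 values could not reverse. Changing the trend or filter or adding the replicate block leaves a gene's estimate as it is. The GC and length correction likewise gives the same estimates with and without the block. An estimate that rounded to 0 was counted as kept. With 3 libraries a group and 4 residual degrees of freedom, the number of libraries limits the precision; the causes below were not tested. The count of all genes past 0.05 was 1 without a trend, 1 with array weights and 69 with the replicate block, and 0 to 33 leaving out 1 library (33 without ischemia replicate 1, 1 each without ischemia replicates 2 and 3). Genes of the set past 0.05 numbered 1 with the block; with the block and the GC and length correction together, 0 of all genes and 0 of the set passed by limma, with 1417 and 4 at an unadjusted p under 0.05. Array weights by the default estimate, which did not converge, and by the gene-by-gene estimate put ischemia replicate 2 at 0.00011 and 7.97; gene by gene, 2132 genes passed, 7 of them in the set, with 13 of the set at an unadjusted p under 0.05. That last count was 4 with quantile normalization, size factors or the GC and length correction (also with the block). It was 1 without a filter and 7 with the block. Leaving out 1 library it was 1 to 12, and 12 without ischemia replicate 1. It was 1 each without ischemia replicates 2 and 3 and sham replicates 1 and 3. Beside these stood 236, 314, 409 and 375 of all 13787 genes, in that order. With both ischemia replicate 3 and sham replicate 1 left out, the count in the set was 0. Among all 13787 genes that count was 537 in the main fit, 710 with quantile normalization, 700 with size factors and 1895 with the block. It was 4641 gene by gene, 2669 without ischemia replicate 1, and 464 with those 2 libraries left out. With the GC and length correction it was 968 of 13569, and without a filter 915 of 24205. The median of the LXR genes was -0.38 without a filter, -0.43 at a mean of at least 5 TPM, -0.06 with the GC and length correction with or without the block, and -0.36 to -0.12 leaving out 1 library (-0.36 without ischemia replicate 1). The first 2 of these medians cover other genes: Abca1 enters without a filter, and Nr1h3 drops out at a mean of at least 5 TPM.

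Same-numbered libraries deviated together with r of 0.39, 0.18 and 0.08, and ischemia replicate 3 correlated best with sham replicate 2 (0.38). The labels do not say whether the numbers pair the samples, and these values cannot settle it. The replicate block took Abcg1 to an adjusted p of 0.0424 by limma, and to 0.296 with the GC and length correction as well. The range over all alternatives was 0.0105 to 1.

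Leaving out ischemia replicate 3 and sham replicate 1 together was chosen on the outcome, being lowest and highest in most of these genes, which raises values by construction. It gave medians of 0.01 for the set, 0.09 for the mevalonate arm, 0.04 for squalene to cholesterol, 0.14 for fatty acid synthesis and -0.08 for LXR, with 14 genes below 0. It reversed Acaca (0.20), Acly (0.11), Cyp51 (0.12), Dhcr7 (0.04), Elovl6 (0.17), Fasn (0.28), Fdps (0.10), Hmgcs1 (0.10), Pmvk (0.09), Scap (0.21), Sqle (0.24), Srebf1 (0.09), Srebf2 (0.01) and Tm7sf2 (0.01).

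Other settings also reversed genes. Size factors gave 0.04 for Elovl6, 0.04 for Fdps, 0.02 for Pmvk and 0.09 for Sqle; quantile normalization gave 0.04 for Elovl6, 0.03 for Pmvk and 0.08 for Sqle. The GC and length correction gave, with or without the block, 0.03 for Elovl6, 0.08 for Fdps, 0.02 for Pmvk, 0.06 for Scap and 0.13 for Sqle. Array weights gave 0.01 for Elovl6, and gene by gene 0.05 for Cyp51, 0.23 for Elovl6, 0.11 for Pmvk and 0.06 for Sqle; voom gave 0.04 for Sqle. Leaving out 1 library, the reversed genes ranged from -0.40 to 0.06 (Acaca), -0.19 to 0.06 (Pmvk), -0.07 to 0.19 (Idi1), -0.20 to 0.10 (Fdps), -0.19 to 0.16 (Sqle), -0.07 to 0.14 (Nsdhl), -0.38 to 0.03 (Scap), -0.57 to 0.09 (Fasn), -0.23 to 0.07 (Elovl6) and -0.05 to 0.23 (Nr1h3).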
